A study of Mus musculus with 4 samples.

Results

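The genes described here are the collagens of the mouse, measured in tumour cells sorted by the surface protein CD44. They were taken as every gene whose symbol has the form Col, a number, a and a number, among the gene probes whose accession matched a mouse RefSeq gene. That rule found 39 collagen genes, read by 65 probes, among 32970 genes on the array, of which 17016 had a symbol. Of the 39 collagens, 33 were tested, since their signal stood well above background on both arrays of CD44+, of CD44- or of both groups. The same condition left 21045 genes in the test. The symbol table lists 44 collagens, and the other 5, Col6a3, Col6a5, Col12a1, Col20a1 and Col22a1, had no probe named for them.

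Collagens are secreted or membrane-anchored proteins in which chains wind into a triple helix, and each gene encodes a chain. Fibril-forming collagens bear the tension of connective tissue, type IV collagens form the sheet of basement membranes, and the fibril-associated, beaded-filament and transmembrane collagens link fibres and cells. In the stomach wall most fibrillar collagen is made by fibroblasts, endothelial and mural cells lay down much of the vascular basement membrane, and epithelial cells contribute to the membrane they rest on.

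The tested cells were lineage-negative CD44+ cells (2 samples), set against lineage-negative CD44- cells (2 samples), all from gastric tumours of K19-Wnt1/C2mE mice aged 30 weeks. In both groups alike the mice carried transgenes driven by the keratin 19 promoter, which is active in glandular stomach epithelium, for Wnt1 and for Ptgs2 and Ptges, enzymes that make prostaglandins, and no wild-type stomach was analysed here. Tumours were dissociated with collagenase, hyaluronidase, trypsin and dispase before sorting. The labels do not say which cell markers made up the lineage gate, nor whether the replicates came from separate mice, so the p-values rest only on how far these samples lie apart, a spread that may be technical.

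Each sample was read on 1 array of 1 colour, with 43379 spots for gene probes and 0 of them saturated. Values are log2 processed signals from which the 75th percentile of the same array was subtracted, so that 0 stands for a probe at that percentile. Values of different probes cannot be ranked against each other. The 75th percentile signal was 244 and 493 on the CD44+ arrays, against 406 and 527 on the CD44- arrays, and 53.1% and 65.6% of probes were well above background on the CD44+ arrays, against 66.6% and 69.6% on the CD44- arrays. The first CD44+ array was thus the dimmest of the 4. Cd44 itself, the sort marker, gave 6.31 and 6.54 in the CD44+ samples, against 4.26 and 5.11 in the CD44- samples, a log2 difference of 1.74 ± 0.49 (SE; adjusted p = 0.199) that did not pass the test although the groups did not overlap. Over all genes the median difference, CD44+ minus CD44- as in every difference below, was 0.16 on the log2 scale.

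Most collagens had a lower signal in CD44+ than in CD44- cells, but 0 of the 33 passed the test at an adjusted p under 0.05 (limma, Benjamini-Hochberg over all genes), where 0.399% of all genes did. The smallest adjusted p was 0.0950, for Col24a1. At an unadjusted p under 0.05, 15 collagens were lower in CD44+ cells, where 7.9% of all genes were, and 1 was higher, where 2.86% of all genes were. The log2 difference lay below 0 for 25 collagens and above 0 for 8, with a median of -1.71, while 39.4% of all genes lay below 0. In 15 collagens, the same 15 that were lower at that unadjusted p, both CD44+ samples lay below both CD44- samples, which 17.2% of all genes did. In 4 collagens both CD44+ samples lay above both CD44- samples, which 22.4% of all genes did. In the remaining 14 the groups overlapped.

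These counts depended on which probes were admitted and on single arrays. Of the 33 collagens, 21 were well above background on all 4 arrays, 9 on 3 and 3 on both CD44- arrays alone. Each of the 9 missed 1 CD44+ array. These probes, like those of the last 3, could enter the test only by being bright in CD44-. Among the 15 collagens lower at an unadjusted p under 0.05, such probes stood for Col4a1, Col4a2, Col5a2, Col6a1, Col8a2, Col13a1, Col15a1, Col17a1 and Col24a1. With probes required to be well above background on all 4 arrays, 22 collagens were tested, 1 of them through another of its probes, 14 of them lay below 0, the median was -0.53 and 0 were called, against 0.459% of all genes so tested. No collagen was called under quantile normalization, where 0.0285% of all genes were. With each array scaled to its median 12 were called, all lower, where 3.55% of all genes were, and the authors' deposited value table gave the same 2 figures. With normexp background correction 14 were called, all lower, where 2.57% of all genes were, and the median was -0.39. With 1 array left out, a group is 1 sample, assumed to vary like the other group, which alone gives the spread. So fitted, 1 collagen (Col17a1) was called without the first CD44+ array, where 0.162% of all genes were, and 0 without the second, where 0.0095% were. Without the first CD44- array 17 were called, all lower, where 7.46% of all genes were. Without the second 4 were called (Col15a1, Col17a1 and Col24a1 lower, Col27a1 higher), where 2.13% of all genes were. The median difference was -2.44 without the first CD44- array and -0.62 without the second.

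**Figure D1:**
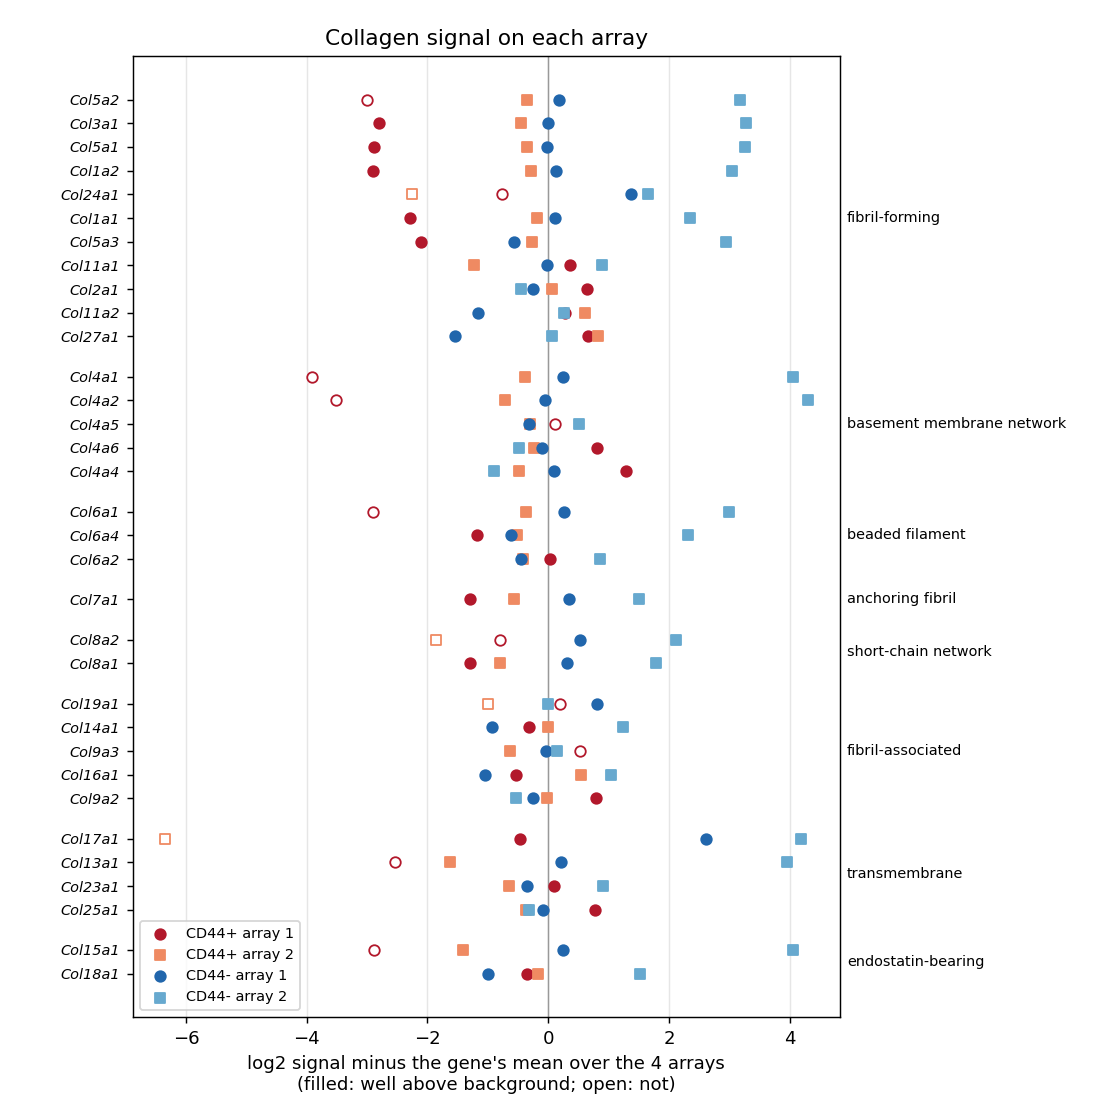
Log2 signal minus the gene's mean over all arrays (horizontal axis) for the 33 collagens tested (rows, grouped by structural class). There is 1 marker per array for the 2 CD44+ and the 2 CD44- samples. For 15 collagens, among them Col4a1, Col1a2 and Col15a1, both CD44+ markers lie left of both CD44- markers, and the second CD44- array lies far to the right of the first for most of these.

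Much of the spread of the family lay between the 2 CD44- samples. The second CD44- array carried at least 2-fold more signal than the first for 23 of the 33 collagens, where 10.9% of all genes did so. The median excess of the second over the first CD44- array was 1.60 on the log2 scale for collagens and -0.15 for all genes. The second CD44+ array was at least 2-fold above the first for 11 of 33 collagens, where 8.43% of all genes were, with a median excess of 0.32. The distance between the nearest samples of the 2 groups was smaller: the first CD44- array exceeded the second CD44+ array by a median of 0.41 over the collagens. In 12 collagens the 4 arrays stood in 1 order from low to high, first CD44+, second CD44+, first CD44- and second CD44-, an order that 8.8% of all genes had.

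The fibril-forming collagens (11 tested) contained 8 with a difference below 0 and 3 above it, with a median of -2.46. The chains of the abundant fibrils of connective tissue stood together: Col1a1 and Col1a2 form type I collagen, Col3a1 type III, and Col5a1 and Col5a2 the type V collagen that nucleates their fibrils. Col1a2 gave 1.36 and 3.99 in the CD44+ samples, against 4.40 and 7.31 in the CD44- samples. Col3a1 gave -0.063 and 2.30 in the CD44+ samples, against 2.74 and 6.02 in the CD44- samples. Col1a1 gave 0.065 and 2.17 in the CD44+ samples, against 2.46 and 4.70 in the CD44- samples. In each of these the 2 groups did not overlap and the second CD44- sample was the highest. The log2 difference was -3.18 ± 1.07 (SE; adjusted p = 0.296) for Col1a2, -3.26 ± 1.10 (SE; adjusted p = 0.297) for Col3a1 and -2.46 ± 0.88 (SE; adjusted p = 0.325) for Col1a1, none of which passed the test. Their 95% intervals were -5.65 to -0.71 for Col1a2, -5.79 to -0.73 for Col3a1 and -4.49 to -0.43 for Col1a1. A second Col3a1 probe that met the condition on background gave -0.60, well short of the -3.26 of the brighter one used here.

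Col5a1 and Col5a2 followed the same order of arrays. Col5a1 gave -2.48 and 0.064 in the CD44+ samples, against 0.38 and 3.67 in the CD44- samples, a difference of -3.23 ± 1.13 (SE; adjusted p = 0.311). Col5a2 gave -5.15 and -2.49 in the CD44+ samples, against -1.96 and 1.03 in the CD44- samples, a difference of -3.35 ± 1.09 (SE; adjusted p = 0.275), and was not well above background on the first CD44+ array. The probes of Col5a1 differed, since another one gave -0.015. Col5a3, the third type V chain, gave -3.07 and -1.22 in the CD44+ samples, against -1.53 and 1.99 in the CD44- samples, so that the lowest CD44- value lay inside the CD44+ range. Its difference was -2.38 ± 1.08 (SE; adjusted p = 0.507), and its other probe gave 0.13, of the opposite sign.

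The remaining fibril-forming chains are those of cartilage and of the less abundant fibrils, and their directions were mixed. Col24a1, a minor fibrillar collagen known from developing bone, gave -5.71 and -7.21 in the CD44+ samples, against -3.58 and -3.31 in the CD44- samples, with both CD44+ values not well above background. Its signal was at least 1.77-fold lower in CD44+ cells, and the fitted difference was -3.02 ± 0.58 (SE; adjusted p = 0.095). The gene could enter the test only through CD44-, and with normexp background correction the difference was -0.33 (adjusted p = 0.993), short of that limit. Col27a1, a collagen of cartilage matrix, ran the other way with -2.02 and -1.84 in the CD44+ samples, against -4.21 and -2.62 in the CD44- samples. Its difference of 1.48 ± 0.59 (SE; adjusted p = 0.399) was the only one above 0 with an unadjusted p under 0.05, and both its probes lay above 0. Col11a2 and Col2a1, chains of cartilage fibrils, also lay higher in both CD44+ samples, with -0.55 and -0.22 in CD44+ and -1.99 and -0.57 in CD44- for Col11a2 and -1.22 and -1.79 in CD44+ and -2.11 and -2.31 in CD44- for Col2a1. The differences were 0.89 ± 0.57 (SE; adjusted p = 0.72) for Col11a2 and 0.71 ± 0.46 (SE; adjusted p = 0.73) for Col2a1, and a second Col2a1 probe gave -2.79. Col11a1 overlapped between the groups, with -3.10 and -4.70 in CD44+ and -3.49 and -2.57 in CD44- and a difference of -0.87 (adjusted p = 0.766).

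The start regions of 2 of these connective tissue genes are shown because both had the same order of arrays. The windows are those of RefSeq on GRCm38.p6 and run from 250 bases before to 50 bases after the annotated gene start: Col1a2 at chr6:4505368-4505667, plus strand, and Col3a1 at chr1:45311288-45311587, plus strand. Capitals mark every match, on either strand, to the CCAAT box, the GC box GGGCGG or the TATA motif TATAA, read 5′ to 3′ on the strand of the gene, and overlapping matches run into each other.
Col1a2: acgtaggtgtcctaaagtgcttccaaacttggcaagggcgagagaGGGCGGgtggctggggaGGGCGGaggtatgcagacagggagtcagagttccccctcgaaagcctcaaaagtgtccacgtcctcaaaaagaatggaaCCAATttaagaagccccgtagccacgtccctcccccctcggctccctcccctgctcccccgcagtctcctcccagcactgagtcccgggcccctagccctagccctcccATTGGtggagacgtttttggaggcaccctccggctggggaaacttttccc
Col3a1: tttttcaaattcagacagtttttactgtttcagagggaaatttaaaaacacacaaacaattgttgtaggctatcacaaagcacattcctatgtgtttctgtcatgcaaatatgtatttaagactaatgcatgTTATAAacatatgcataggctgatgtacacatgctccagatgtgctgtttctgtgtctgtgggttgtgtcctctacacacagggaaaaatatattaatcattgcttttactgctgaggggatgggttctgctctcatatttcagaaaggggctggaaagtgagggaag
Of the 33 collagens tested, 28 had such a window in the table. The CCAAT letters lay in the windows of 12 of these 28 genes and in 37.4% of all 32851 windows, the GC box in 20 of 28 and in 35.7% of all windows, and the TATA letters in 5 of 28 and in 24.9% of all windows. The matches describe the letters only.

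**Figure D2:**
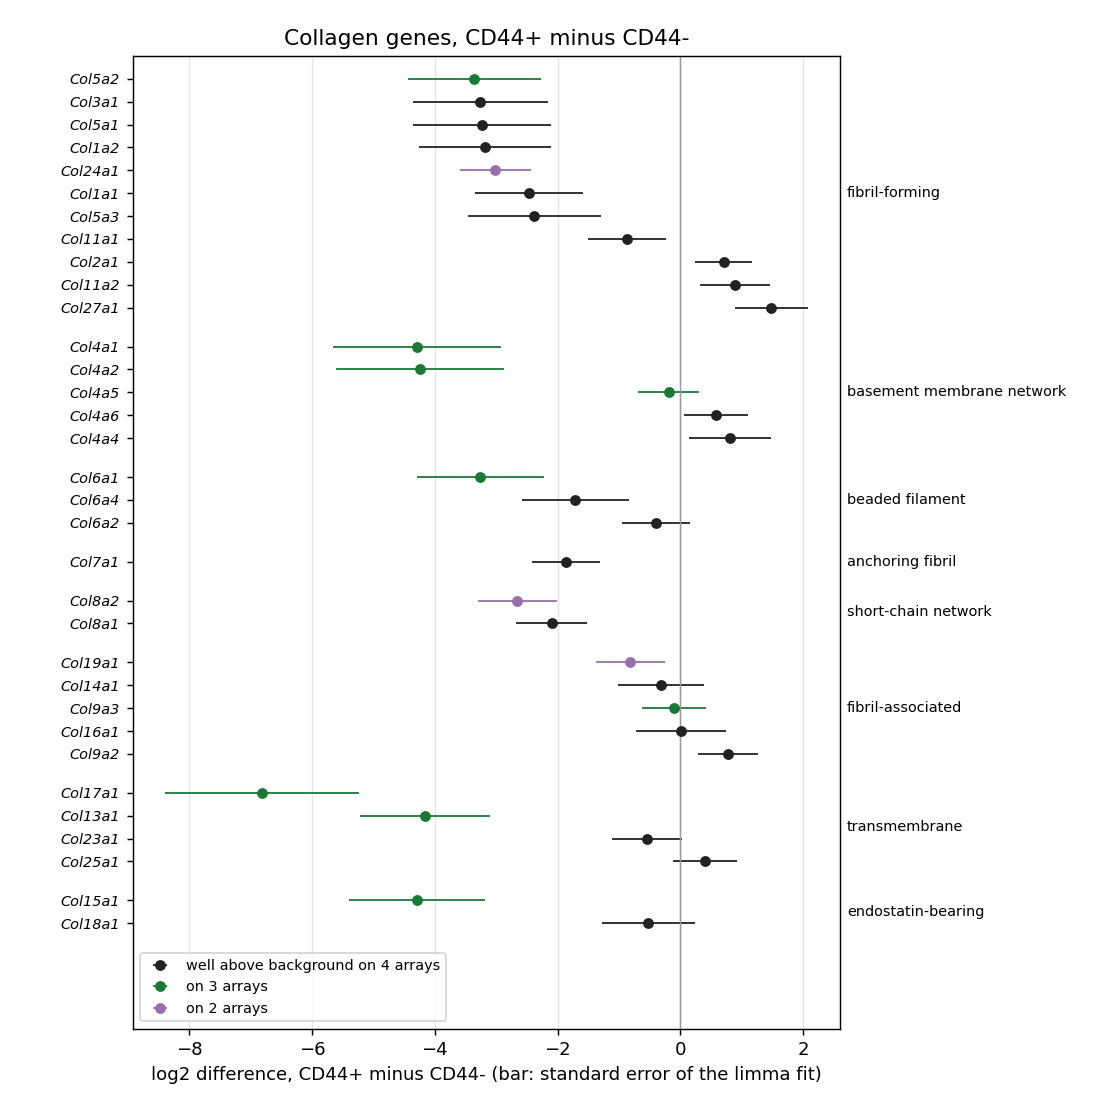
Log2 difference, CD44+ minus CD44-, with its standard error from limma (horizontal axis) for the 33 collagens tested (rows, grouped by structural class), with colour for the number of arrays on which the probe was well above background. Points lie below 0 for 25 collagens and above 0 for 8, from -6.81 for Col17a1 to 1.48 for Col27a1.

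The type IV collagens, the network of basement membranes, split within the class. Col4a1 and Col4a2, whose chains assemble into the form found in nearly all basement membranes, had a lower signal in both CD44+ samples, and in Col4a4, Col4a5 and Col4a6, chains of more restricted membranes, the groups overlapped. Col4a1 gave -4.31 and -0.78 in the CD44+ samples, against -0.16 and 3.65 in the CD44- samples. Col4a2 gave -3.94 and -1.14 in the CD44+ samples, against -0.48 and 3.88 in the CD44- samples. Neither was well above background on the first CD44+ array, and in both the second CD44- sample stood well apart from the other 3. The difference was -4.29 ± 1.37 (SE; adjusted p = 0.264) for Col4a1 and -4.24 ± 1.37 (SE; adjusted p = 0.269) for Col4a2, sizes that include a CD44+ value not well above background. Further probes of each gave -2.89 for Col4a1 and -2.88 for Col4a2. The 95% interval of the Col4a1 difference was -7.44 to -1.13 and that of Col4a2 -7.38 to -1.09.

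Of these 3 chains, Col4a4 gave 1.79 and 0.014 in the CD44+ samples, against 0.59 and -0.41 in the CD44- samples, with a difference of 0.81 ± 0.67 (SE; adjusted p = 0.783). Col4a6 gave 0.24 and -0.80 in the CD44+ samples, against -0.68 and -1.05 in the CD44- samples, with a difference of 0.58 ± 0.51 (SE; adjusted p = 0.79). Col4a5 gave -3.50 and -3.91 in the CD44+ samples, against -3.92 and -3.10 in the CD44- samples, with a difference of -0.19 ± 0.49 (SE; adjusted p = 0.914), and was not well above background on the first CD44+ array. The contrast of these 3 with Col4a1 and Col4a2 was not tested. Col4a3 was not well above background on any array.

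Col4a1 and Col4a2 are known to lie head to head and to share a promoter region, and their windows are printed for that reason. In RefSeq on GRCm38.p6 their annotated starts are 21 bases apart on opposite strands and the windows share 78 bases. Col4a1 is at chr8:11312777-11313076, minus strand, and Col4a2 at chr8:11312555-11312854, plus strand, each written on its own gene's strand with capitals for the same 3 motifs.
Col4a1: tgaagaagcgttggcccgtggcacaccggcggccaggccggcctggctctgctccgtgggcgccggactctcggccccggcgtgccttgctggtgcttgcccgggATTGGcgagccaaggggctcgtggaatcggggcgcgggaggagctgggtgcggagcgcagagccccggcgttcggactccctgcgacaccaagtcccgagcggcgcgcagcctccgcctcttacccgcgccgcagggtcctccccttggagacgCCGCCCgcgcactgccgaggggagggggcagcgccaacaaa
Col4a2: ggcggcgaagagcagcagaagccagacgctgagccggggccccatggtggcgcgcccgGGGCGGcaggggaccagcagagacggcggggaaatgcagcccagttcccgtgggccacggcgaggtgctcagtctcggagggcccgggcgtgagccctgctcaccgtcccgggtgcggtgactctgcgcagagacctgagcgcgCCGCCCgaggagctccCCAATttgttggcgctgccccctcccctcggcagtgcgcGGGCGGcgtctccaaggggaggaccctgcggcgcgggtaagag
Both windows hold the CCAAT letters and the GC box, and neither holds the TATA letters. The GC box of Col4a1 lies in the shared 78 bases, where the same bases form a GC box of Col4a2. Col4a5 and Col4a6, also on opposite strands, have annotated starts 1343 bases apart, and their windows share 0 bases.

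**Figure D3:**
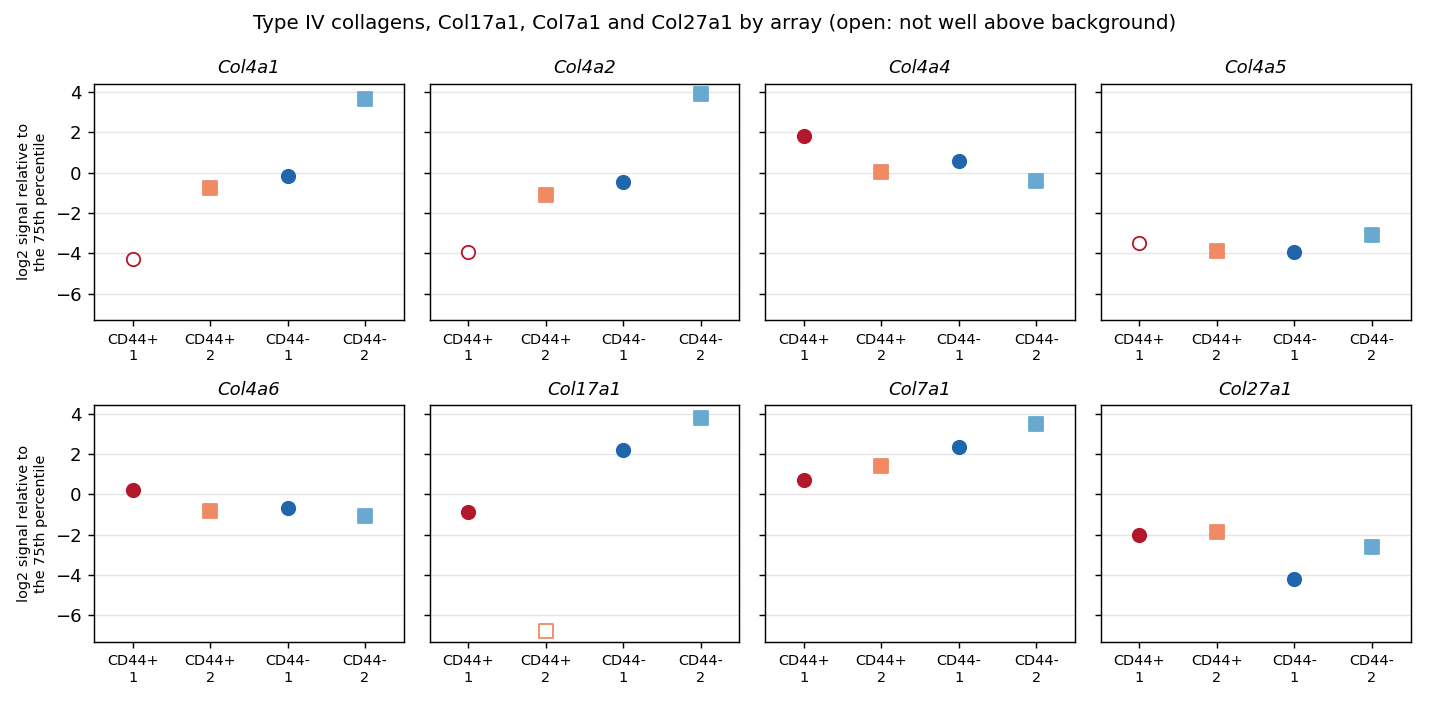
Log2 signal relative to the array's 75th percentile (vertical axis) on each of the 4 arrays (horizontal axis, CD44+ then CD44-) for the type IV collagens, Col17a1, Col7a1 and Col27a1, with open markers where the probe was not well above background. Col4a1 and Col4a2 step up over the 4 arrays to 3.65 and 3.88 on the second CD44- array, Col4a4 to Col4a6 show no separation of the groups, and Col17a1 has an open marker on the second CD44+ array.

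The collagens that tie epithelium to the matrix had a lower signal in both CD44+ samples than in either CD44- sample. Col17a1 encodes a transmembrane collagen of hemidesmosomes, the junctions that fasten basal epithelial cells to the basement membrane. It gave -0.89 and -6.78 in the CD44+ samples, against 2.19 and 3.76 in the CD44- samples, and the second CD44+ array was not well above background. The difference of -6.81 ± 1.58 (SE; adjusted p = 0.141) was the largest in the family by size, with a 95% interval of -10.46 to -3.16. A second probe, well above background in the CD44- samples alone, gave -5.31. Both probes could enter the test only through CD44-. Without the second CD44+ sample the difference was -3.87. Without the first it was -9.76, a value that rests for CD44+ on the array not well above background and is no measured size. Col7a1, which forms the anchoring fibrils beneath stratified epithelia, gave 0.70 and 1.42 in the CD44+ samples, against 2.34 and 3.50 in the CD44- samples, a difference of -1.86 ± 0.55 (SE; adjusted p = 0.227) with no overlap of the groups.

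Other hemidesmosome genes lay on both sides of 0. Of 7 counted, 6 were tested, 2 lay below 0 and 4 above, with a median of 0.25, 0 at an unadjusted p under 0.05 and 0 called. Itgb4, the integrin subunit of hemidesmosomes, gave 5.87 and 6.12 in the CD44+ samples, against 5.92 and 5.49 in the CD44- samples, a difference of 0.29 ± 0.45 (SE; adjusted p = 0.856). Its partner Itga6 differed by 0.53 (adjusted p = 0.784), and the plakin genes Plec and Dst by 0.22 and -0.67, where Plec probes differed in sign.

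Markers of squamous basal cells, the cells that line the forestomach and carry many hemidesmosomes, stood lower in CD44+ cells beside Col17a1 and Col7a1. All 4 tested lay below 0, with a median of -6.20, 4 of 4 at an unadjusted p under 0.05 and 0 called. Krt5 gave 2.96 and -1.02 in the CD44+ samples, against 6.89 and 7.58 in the CD44- samples, a difference of -6.27 ± 1.10 (SE; adjusted p = 0.0769). The transcription factor Trp63 gave -1.65 and -6.10 in the CD44+ samples, against 1.87 and 2.79 in the CD44- samples, a difference of -6.21 ± 1.22 (SE; adjusted p = 0.104), with the lowest value on the same second CD44+ array on which Col17a1 was lowest. The summed signal of the 4 genes, in multiples of the array's 75th percentile, was 13.6 and 0.997 in CD44+ against 195 and 345 in CD44-. Such a sum, here and below, is carried mostly by the brightest probes of a list. Each of the 4 was well above background on at least 3 arrays. Trp63 missed the second CD44+ array, so that it could enter the test only through CD44-. The part of this list in the Col17a1 and Col7a1 values was not tested. In samples of many cells, fewer cells of a type and less RNA per cell cannot be told apart, here and in what follows.

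The window of Col17a1 is shown because the gene had the largest difference of the family. It lies at chr19:47691993-47692292, minus strand in RefSeq on GRCm38.p6, written on the strand of the gene, with the same motifs in capitals.
Col17a1: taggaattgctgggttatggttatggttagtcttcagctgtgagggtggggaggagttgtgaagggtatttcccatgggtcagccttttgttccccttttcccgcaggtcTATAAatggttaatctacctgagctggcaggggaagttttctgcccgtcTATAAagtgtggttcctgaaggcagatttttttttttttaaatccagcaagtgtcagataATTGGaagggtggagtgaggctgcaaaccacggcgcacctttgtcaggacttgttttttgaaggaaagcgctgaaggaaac
It holds the CCAAT letters and the TATA letters, and not the GC box.

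The remaining transmembrane collagens were mixed. Col13a1, a collagen of cell and matrix contacts, gave -4.77 and -3.85 in the CD44+ samples, against -2.02 and 1.72 in the CD44- samples, not well above background on the first CD44+ array, and its difference was -4.16 ± 1.06 (SE; adjusted p = 0.167). Col23a1 and Col25a1 overlapped between the groups. Col23a1 gave -3.16 and -3.90 in CD44+ and -3.62 and -2.36 in CD44-, a difference of -0.55 (adjusted p = 0.81). Col25a1, a neuronal collagen, gave -2.15 and -3.29 in CD44+ and -3.01 and -3.24 in CD44-, a difference of 0.41 (adjusted p = 0.835).

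The endostatin-bearing collagens Col15a1 and Col18a1 are proteoglycans of basement membrane zones whose ends can be cleaved to anti-angiogenic fragments, and their values differed in kind. Col15a1, a collagen of vessel and muscle basement membranes, gave -4.59 and -3.12 in the CD44+ samples, against -1.48 and 2.33 in the CD44- samples, a difference of -4.29 ± 1.11 (SE; adjusted p = 0.175) without overlap and with the first CD44+ array not well above background. Col18a1, also made by epithelia, gave 4.64 and 4.82 in the CD44+ samples, against 3.99 and 6.51 in the CD44- samples. Both CD44+ samples lay between the CD44- samples, and the difference of -0.52 ± 0.77 (SE; adjusted p = 0.851) had a 95% interval of -2.28 to 1.25. The 2 Col18a1 probes gave -0.55 and -0.52.

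Among the beaded-filament collagens of type VI, which form microfibrils around cells, all 3 tested lay below 0. Col6a1 gave -5.02 and -2.49 in the CD44+ samples, against -1.87 and 0.87 in the CD44- samples, not well above background on the first CD44+ array, a difference of -3.26 ± 1.03 (SE; adjusted p = 0.257) without overlap. Its partner chain Col6a2 gave -1.74 and -2.19 in the CD44+ samples, against -2.22 and -0.91 in the CD44- samples, a difference of -0.40 ± 0.56 (SE; adjusted p = 0.845), and its groups overlapped. Col6a4 gave -1.75 and -1.09 in CD44+ and -1.18 and 1.75 in CD44-, a difference of -1.71 (adjusted p = 0.588), while its other probe gave 0.46. Col6a6 was not well above background on any array.

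The short-chain network collagens of type VIII, found around vessels and in the matrix beneath endothelium, lay lower in both CD44+ samples. Col8a1 gave -1.53 and -1.03 in the CD44+ samples, against 0.076 and 1.55 in the CD44- samples, a difference of -2.10 ± 0.58 (SE; adjusted p = 0.199). Col8a2 gave -5.67 and -6.72 in the CD44+ samples, against -4.34 and -2.74 in the CD44- samples, was not well above background in CD44+ cells and had at least 1.66-fold lower signal there, with a fitted difference of -2.65 ± 0.65 (SE; adjusted p = 0.155). It too could enter the test only through CD44-, and with normexp background correction the difference was -0.39 (adjusted p = 0.993), short of that limit. Col10a1, the third gene of this class and a product of hypertrophic cartilage, was not well above background on any array.

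The fibril-associated collagens sit on the surface of fibrils, and in this class no gene was lower without overlap, where 17.2% of all genes were. So few genes cannot set the class apart by that count. The 5 tested had a median difference of -0.11, with 3 below 0 and 2 above. Col16a1 gave 2.08 and 3.16 in the CD44+ samples, against 1.56 and 3.65 in the CD44- samples, a difference of 0.014 ± 0.73 (SE; adjusted p = 0.996) with a 95% interval of -1.67 to 1.70. Col14a1, which binds type I fibrils in skin and tendon, gave -2.72 and -2.40 in the CD44+ samples, against -3.32 and -1.16 in the CD44- samples, a difference of -0.31 ± 0.70 (SE; adjusted p = 0.902). In both genes the CD44+ pair lay inside the range of the CD44- pair. Col9a2 and Col9a3, chains of cartilage collagen IX, differed by 0.78 and -0.11 (adjusted p = 0.711 and 0.958). Col9a2 was higher in both CD44+ samples. Col19a1, a rare collagen, gave -4.76 and -5.96 in CD44+ and -4.14 and -4.95 in CD44- and was not well above background in CD44+ cells, so that no fold is given. Col9a1 was well above background on 1 array, and Col26a1 and Col28a1, which fall in no class here, on 0.

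Markers of fibroblasts stood, in the median, in the same order of arrays as the fibrillar chains. Of 12 fibroblast markers 10 were tested, 9 below 0 and 1 above, with a median of -3.18, 7 at an unadjusted p under 0.05, all lower, and 0 called. The proteoglycan genes Lum and Dcn, whose products bind collagen fibrils, gave -0.75 and 1.19 in CD44+ and 2.59 and 5.50 in CD44- for Lum and 1.33 and 3.81 in CD44+ and 4.81 and 7.25 in CD44- for Dcn. Their differences were -3.83 ± 0.98 (SE; adjusted p = 0.169) for Lum and -3.46 ± 0.97 (SE; adjusted p = 0.2) for Dcn. The summed signal of the 10 fibroblast markers was 8.80 and 23.5 times the 75th percentile in CD44+ against 49.3 and 233 times in CD44-. On the CD44- arrays Dcn made up most of that sum. The second CD44- array was at least 2-fold above the first for 7 of the 10. Dpt, Mfap5, Pdgfra and Thy1 could enter the test only through CD44-. Twist2 and Fap were not tested, since they were not well above background on both arrays of either group.

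Endothelial and mural markers had that order in the median too. Of 11 endothelial markers 9 were tested, 8 below 0 and 1 above, with a median of -4.45, 8 at an unadjusted p under 0.05, all lower, and 0 called. Cdh5, Emcn and Robo4, all among those 8, were not well above background on the first CD44+ array. They could enter the test only through CD44-. Cdh5, the cadherin of endothelial junctions, gave -4.84 and -3.45 in the CD44+ samples, against -1.21 and 1.83 in the CD44- samples, a difference of -4.45 ± 0.94 (SE; adjusted p = 0.114). The summed signal of the 9 endothelial markers was 1.57 and 2.40 in CD44+ against 8.10 and 152 in CD44-, and the second CD44- array was at least 2-fold above the first for 9 of 9. Pecam1 and Tie1 did not meet the condition on background. All 8 mural and smooth muscle markers tested of 9 lay below 0, with a median of -1.81, 2 at an unadjusted p under 0.05 and 0 called, and a summed signal of 9.16 and 12.2 in CD44+ against 13.7 and 64.9 in CD44-. Of these mural markers Cnn1, Rgs5 and Pdgfrb could enter the test only through CD44-. Des was not tested for its low signal. The part of these 3 marker lists in the collagen values was not tested.

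Gastric epithelial markers, which name the tissue of the tumour, were bright in all 4 samples. Of 9 tested, 2 lay below 0 and 7 above, with a median of 0.50, 1 lower and 1 higher at an unadjusted p under 0.05, and 0 called. Their summed signal was 3851 and 2309 in CD44+ against 3051 and 1502 in CD44-, lowest on the second CD44- array, where fibroblast, endothelial and mural sums were highest. Tff1, Krt8, Krt18 and Krt19 made up most of the epithelial sum. Epcam, an epithelial adhesion molecule, gave 4.69 and 4.66 in the CD44+ samples, against 3.34 and 2.70 in the CD44- samples, a difference of 1.66 ± 0.46 (SE; adjusted p = 0.199). The pit cell mucin Muc5ac ran the other way with 0.26 and -1.02 in the CD44+ samples, against 5.78 and 2.77 in the CD44- samples, a difference of -4.65 ± 0.93 (SE; adjusted p = 0.105), or -2.22 with the mean of its probes. Of 4 glial markers counted 3 were tested, with 1 below and 2 above 0, a median of 0.52, 0 at an unadjusted p under 0.05 and 0 called. Of 5 leukocyte markers 2 lay below and 3 above 0, with a median of 0.36 and 1 in each direction at an unadjusted p under 0.05, and 1 was called: Cd53, a leukocyte tetraspanin, gave -1.89 and -1.90 in the CD44+ samples, against -6.08 and -5.32 in the CD44- samples. It was not well above background in CD44- cells, so that it could enter the test only through CD44+. Its signal was at least 9.06-fold higher in CD44+ cells (adjusted p = 0.0241). The call did not hold in every alternative, and the fitted difference of 3.81 came as low as 1.65 there, short of that limit. Of the others, Laptm5 and the leukocyte phosphatase Ptprc were lower in both CD44+ samples, with differences of -1.48 ± 0.57 (SE; adjusted p = 0.381) for Laptm5 and -0.66 ± 0.47 (SE; adjusted p = 0.765) for Ptprc. Coro1a was higher in both CD44+ samples, with a difference of 0.52 ± 0.47 (SE; adjusted p = 0.793). Cd52 overlapped between the groups, with a difference of 0.36 ± 0.56 (SE; adjusted p = 0.855).

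**Figure D4:**
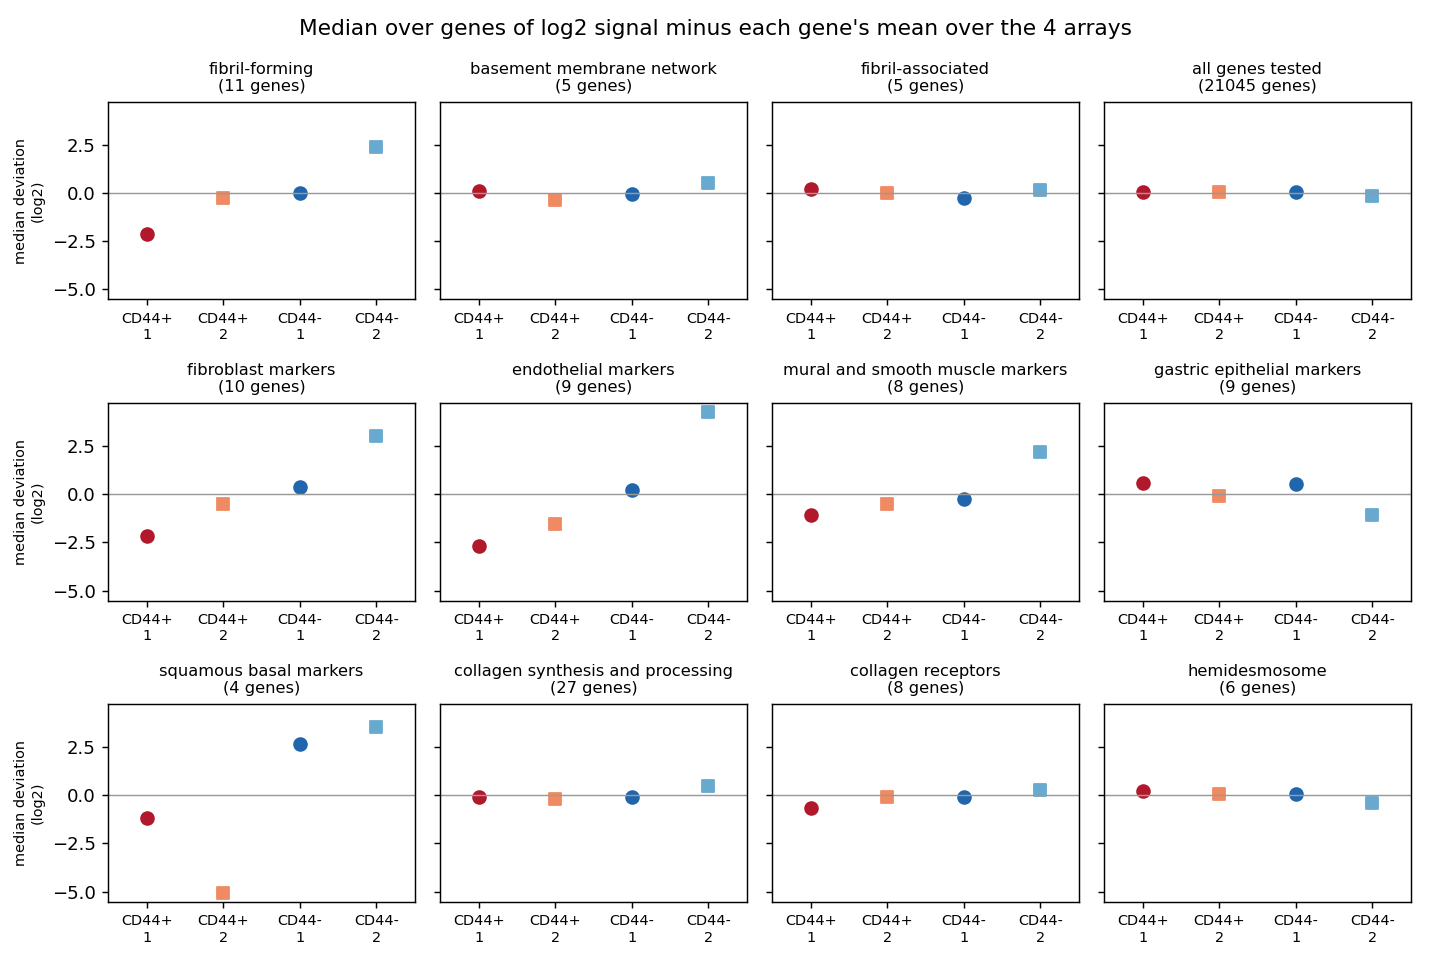
Median over the genes of each list of the log2 signal minus that gene's mean over the 4 arrays (vertical axis), for each array (horizontal axis, CD44+ then CD44-), in 3 collagen classes, 8 other lists and all genes tested. Fibril-forming collagens lie at -2.11 and -0.28 in CD44+ and at -0.024 and 2.35 in CD44-, fibroblast markers at -2.17 and -0.52 in CD44+ and at 0.38 and 2.99 in CD44-, and squamous basal markers are lowest on the second CD44+ array, at -5.06.

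Of 37 listed genes for the synthesis and processing of collagen, 27 were tested, and they did not share 1 direction: 14 lay below 0 and 13 above, with a median of -0.043, 8 lower and 1 higher at an unadjusted p under 0.05, and 0 called. Those 8 include chaperones and modifiers of chain folding (Serpinh1, Fkbp10, Fkbp14, P3h3 and P3h4). Serpinh1, the collagen chaperone of the endoplasmic reticulum, gave -0.55 and 1.78 in the CD44+ samples, against 2.98 and 5.83 in the CD44- samples, a difference of -3.79 ± 1.02 (SE; adjusted p = 0.186). Loxl1, a lysyl oxidase that cross-links matrix fibres, gave -5.71 and -3.40 in the CD44+ samples, against -2.21 and 0.66 in the CD44- samples, a difference of -3.78 ± 1.02 (SE; adjusted p = 0.188), and was not well above background on the first CD44+ array. Both showed the order of arrays seen in Col1a2 and Col3a1. The collagen-binding protein Sparc differed by -3.73 ± 1.18 (SE; adjusted p = 0.259), the prolyl hydroxylase family gene P3h3 by -2.88 ± 0.92 (SE; adjusted p = 0.264) and the immunophilin Fkbp10 by -2.63 ± 0.94 (SE; adjusted p = 0.322). Adamts2, which removes the amino end of procollagen, differed by -2.85 (adjusted p = 0.429). The probes used for P3h3 and Adamts2 were not well above background on the first CD44+ array. Like that of Loxl1, they could enter the test only through CD44-.

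The prolyl and lysyl hydroxylases, which modify the chains, varied among themselves. P4ha1, the catalytic chain of prolyl 4-hydroxylase, differed by -0.18 ± 0.58 (SE; adjusted p = 0.933), and P4hb, its partner and a general disulfide isomerase, by 0.37 ± 0.52 (SE; adjusted p = 0.847). The lysyl hydroxylases Plod1 and Plod3 differed by 0.11 and 0.59, with adjusted p values of 0.962 and 0.778. P4ha2 differed by 0.033 (adjusted p = 0.986), and the prolyl hydroxylase family genes P3h2 and P3h4 by -1.06 and -1.22 (adjusted p = 0.721 and 0.373). P3h2 was not well above background in CD44+ cells, so that it could enter the test only through CD44-. Pcolce2, an enhancer of the enzyme that trims procollagen ends, ran opposite to its relative Pcolce. Pcolce2 gave 1.83 and 1.21 in the CD44+ samples, against -1.54 and -0.67 in the CD44- samples, a difference of 2.62 ± 0.51 (SE; adjusted p = 0.101), the only gene of the list above 0 with an unadjusted p under 0.05. Pcolce gave 3.51 and 2.80 in CD44+ and 3.74 and 5.23 in CD44-, a difference of -1.33 (adjusted p = 0.497). Lox and Plod2 did not meet the condition on background.

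Of 12 collagen receptors 8 were tested, 6 below 0 and 2 above, with a median of -0.47, 3 lower and 0 higher at an unadjusted p under 0.05, and 0 called. Mrc2, which takes up collagen for degradation, gave -5.11 and -5.16 in the CD44+ samples, against -4.21 and -2.10 in the CD44- samples and was not well above background in CD44+ cells, so that it could enter the test only through CD44-. Its signal was at least 2.16-fold lower in CD44+ cells, with a fitted difference of -1.98 ± 0.68 (SE; adjusted p = 0.306). In the alternatives the Mrc2 difference came as near 0 as -0.45, short of that limit. Without the second CD44- array it was -0.93, also short of it. Itga11, the integrin of fibroblasts for type I collagen, gave -3.04 and -1.74 in the CD44+ samples, against -1.75 and 1.08 in the CD44- samples, a difference of -2.06 ± 0.89 (SE; adjusted p = 0.463). The leukocyte collagen receptor Lair1 gave -5.15 and -4.09 in the CD44+ samples, against -3.59 and 1.71 in the CD44- samples, a difference of -3.68 ± 1.42 (SE; adjusted p = 0.378), with the second CD44- sample far above the other 3. Lair1 was not well above background on the first CD44+ array, so that it could enter the test only through CD44-. Itga2 and Itgb1, which form the collagen integrin of epithelium, differed by -0.29 and 0.25 (adjusted p = 0.869 and 0.875), and Itga2 probes differed in sign. Ddr1 had no probe named for it.

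The directions of the collagens held to different degrees with each array left out. With each of the 4 left out in turn, 19 collagens kept a difference below 0 and 5 kept one above 0. These include the 15 lower and 4 higher collagens without overlap of the groups. For them leaving out 1 array could not turn the sign. Col1a2 ranged from -4.64 to -1.73, Col4a1 from -6.19 to -2.38, Col15a1 from -6.19 to -2.38 and Col17a1 from -9.76 to -3.87. For the first 3 of these the value nearest 0 came without the second CD44- array. Col27a1 ranged from 0.69 to 2.28. The sign turned in at least 1 alternative for 11 collagens.

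**Figure D5:**
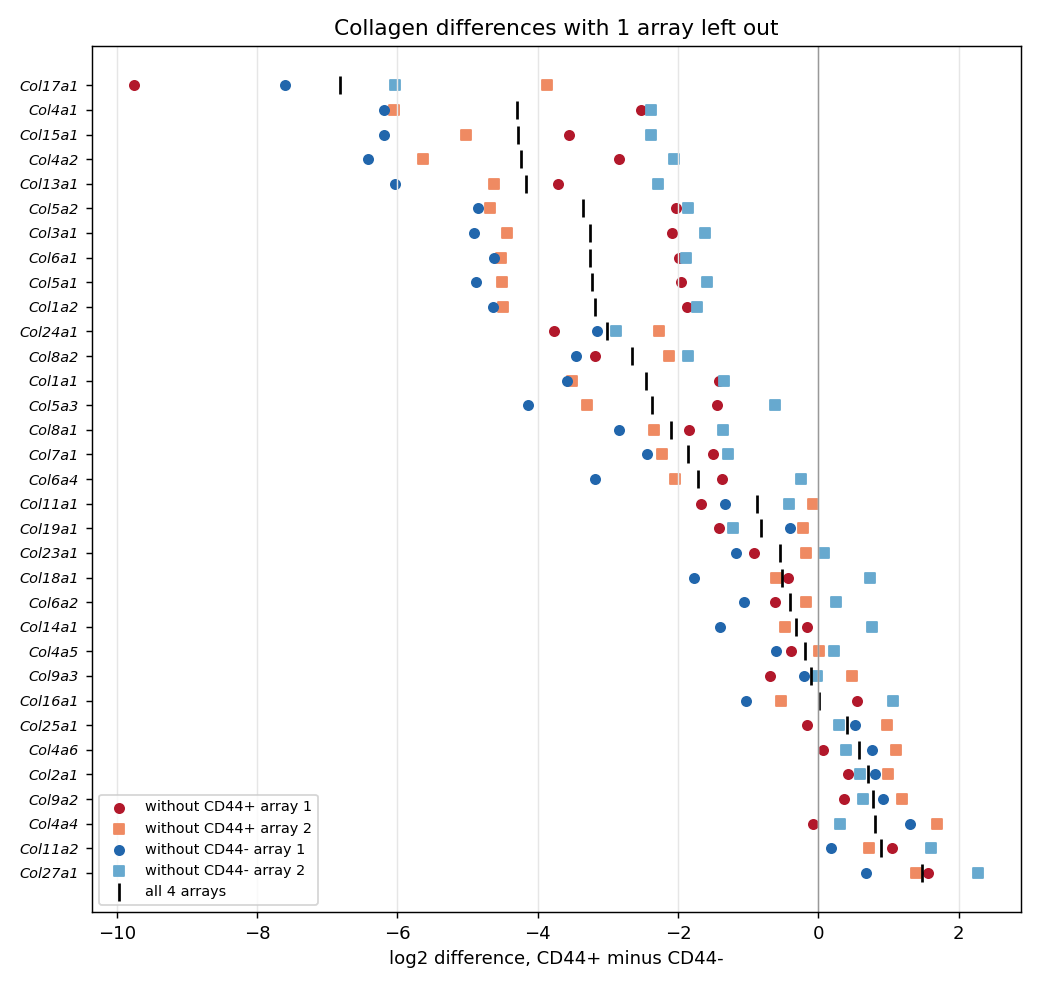
Log2 difference, CD44+ minus CD44- (horizontal axis), of each of the 33 collagens tested (rows), from all 4 arrays (black bars) and from 3, leaving out 1 array at a time (coloured markers). All 4 markers lie below 0 for 19 collagens and above 0 for 5, and without the second CD44- array most of the lower collagens lie nearer 0.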

How the data were processed

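RNA of 2 CD44+ and 2 CD44- samples, grouped by their titles, was amplified from 25 ng and labelled with Cy3, per the labels' protocols. The authors deposited, per the file headers, a processed signal on a linear intensity scale, background-subtracted by Agilent Feature Extraction 10.1.1.1, with spot and background intensity signals and flags (the submitters' processing notes name 9.5). The authors' deposited value table holds a linear ratio of each probe to its median over the arrays; for 10728 bright probes its log2 differences followed the scanner values within an SD of 0.00161, each array up to 1 unknown factor, and its column medians were 0.853 and 0.989 for CD44+ and 0.928 and 0.739 for CD44-.

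Outlier spots, 109 to 133 on an array, were dropped and the spots of a probe averaged, giving 41174 probes, of which 24375 matched a symbol by accession (RefSeq, GRCm38.p6). Log2 signals minus the array's 75th percentile were compared with limma 3.58.1 in R 4.3.3 without covariates, which leaves 2 residual degrees of freedom plus 6.01 from the variance model. The gene probe brightest on average stood for a gene, and the Benjamini-Hochberg adjustment ran over 21045 genes. A probe was tested where well above background on both arrays of a group. Lower limits set the brighter mean against the dim probe or the array's dimmest probe well above background, whichever was brighter. All 4 arrays share 1 slide and 1 scan. The precision is limited by the number of arrays. The same limma step was tested on simulated data.

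Every collagen tested, and from each list up to 6 genes of smallest p and some fixed ones, could be named, though not every gene so picked is reported. In the hemidesmosome and glial lists 1 gene each is not reported here and not counted. The members and lists were chosen with earlier results of these data known. Alternatives were another scaling, background correction, filter, probe rule and variance model, the authors' table, a replicate block and each array left out. The array design refers to another build than the promoter windows, which are RefSeq's.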

Additional observations from a re-analysis of the deposited data

How the results depend on the processing

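With 2 arrays a group and 2 residual degrees of freedom, the number of calls differed between settings, and so did the degrees of freedom that the variance model added. These were 6.01 as reported and 3.52 under quantile normalization, against 18.9 with median scaling and 73.3 without either CD44- array, and had no finite value with normexp or the replicate block. Collagens called numbered 0 as reported, 12 with each array's median, 14 with normexp background correction and 12 with the authors' table. It was 0 with quantile normalization, no filter, a filter on all 4 arrays, the mean of a gene's probes and an intensity trend, and between 0 and 17 with 1 array left out. Genes called numbered 84 as reported, 748 with the median, 6 with quantile normalization, 540 with normexp, 748 with the authors' table, 24 without a filter and 130 with a trend, and between 2 and 1569 with 1 array left out. Called genes split 5 higher and 79 lower as reported, 121 and 627 with the median and 98 and 442 with normexp. Median scaling moved the median difference of all genes from 0.16 to 0.26. The median collagen difference of -1.71 was -0.39 with normexp, -0.53 with the filter on all 4 arrays and -1.04 with the mean of probes, and between -2.44 and -0.62 with 1 array left out. The cause of these shifts was not tested.

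With the replicate number as a block, 18 collagens (17 lower, and Col27a1 higher) and 1829 genes (8.69%) were called. The numbers are only shared titles: no label ties them to a mouse or day, and over the 2 pairs the deviations of same-numbered samples correlated at 0.347, which 2 pairs cannot settle. The median collagen difference under the block was -1.71. A block for slide or scan was not run, since all arrays share 1 of each.

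Signs turned for values near 0. With 1 array left out, Col14a1 lay between -1.39 and 0.77, Col16a1 between -1.03 and 1.06, Col18a1 between -1.78 and 0.74, Col23a1 between -1.18 and 0.087, Col25a1 between -0.16 and 0.97, Col4a4 between -0.076 and 1.70, Col4a5 between -0.60 and 0.22, Col6a2 between -1.05 and 0.26 and Col9a3 between -0.69 and 0.48. Over the same settings Itga2 lay between -0.69 and 0.12, Plec between -0.088 and 0.52, Lamb3 between -0.72 and 0.58, Cldn18 between -0.24 and 1.34, Cd52 between -0.28 and 1.00 and P4ha1 between -0.89 and 0.53. With normexp Col16a1 was -0.0480, Col19a1 0.039, Col4a5 0.19, Col9a3 0.20 and Gfap 0.33. With quantile normalization Col16a1 was -0.18, Col9a3 0.049 and Gfap 0.17, and with median scaling Col9a3 was 0.000236 and Lamb3 0.036. With the authors' table Lamb3 was 0.034. With the mean of a gene's probes Col2a1 was -1.04, Itga2 0.41 and Plec -0.93. No difference of a collagen with an unadjusted p under 0.05 turned sign in the alternatives that could give its value. The filter on all 4 arrays gave none for 11 of the 33 collagens. In each collagen with such a p the groups did not overlap, so that leaving out 1 array could not turn the sign. The intensity trend and the replicate block do not alter a difference.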
